A study of Mus musculus with 20 samples.

Results

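The general transcription machinery of RNA polymerase II (Pol II) was followed across all arrays of the study. Its members were taken by symbol alone, as the transcript clusters, the probe groups by which the array reports a gene or part of a gene, paired with exactly 1 gene symbol that begins with Gtf2 or with Taf and a digit, or that reads Polr2 and a letter from a to m. This found 65 transcript clusters of 52 genes among the 28853 clusters of the array. The rule uses no measured value, but it was set with earlier results of these data known. They comprise 7 core subunits of Pol II and the Pol II-associated Polr2m, listed with them, 5 subunits that Pol II shares with Pol I and Pol III, 17 TBP-associated factors (TAFs) of TFIID, 2 TAF-like proteins of the SAGA complex, 4 TAFs of the Pol I factor SL1, the RNA-binding protein Taf15, and 3 genes of TFIIA, 1 of TFIIB, 2 of TFIIE, 2 of TFIIF, 4 of TFIIH and 3 of the TFII-I family. Micropunched amygdala and hippocampal tissue gave the RNA. The mice were C57BL/6 males about 2 mo old, either wild type (WT) or lacking both Ca2+-stimulated adenylyl cyclases (Adcy1-/- Adcy8-/-, DKO). Untrained mice gave the baseline. The others had a conditioned fear (CF) training trial with a 0.7 mA shock of 2 s and were taken directly (0 hr), 1 hr or 48 hr later, or at 1 wk, right after a CF testing trial. Each of the 20 arrays held RNA pooled from 5 to 10 mice, with 1 array for each region, genotype and time point, so a group of region and genotype has 5 arrays that differ in time. The DKO animals were bred apart from the WT animals, in crosses given doxycycline up to weaning, and some may have carried tetop-AC8 or CaMKII-tTA without the other, so genotype cannot be told apart from that history. Values are RMA levels on a log2 scale, on which a difference of 0.58 is 1.5-fold.

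To start a transcript, Pol II is placed on a promoter by general factors. TFIID, made of the TATA-binding protein Tbp and the TAFs, reads the core promoter. TFIIA and TFIIB hold it there and bridge to the polymerase, TFIIF escorts the polymerase, and TFIIE brings in TFIIH, whose helicase opens the DNA. Several subunits serve more than Pol II: the shared polymerase subunits also sit in Pol I and Pol III, SL1 directs Pol I to ribosomal RNA genes, and some TAFs are also found in SAGA, a histone acetyltransferase complex. In neurons, Ca2+ and cAMP signals reach this machinery through CREB, which binds the cAMP response element (CRE).

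Whether the genes of the members are themselves regulated along that path was not tested. Their promoters were searched for motifs. Stretches before the annotated start sites are shown for members on which the results below turn and for the member whose stretch holds a full CRE. RefSeq (GRCm38.p6) gave promoter entries for 45 of the 52 genes. The full CRE, TGACGTCA, was found on either strand within 250 bases before to 50 bases after the start in 2 of the 56 promoters of members (3.57%), 1 of Taf11 and 1 of Gtf2f1, against 1.79% of all 32851 promoters. The ETS-type motif CCGGAAG was in 30.4% of the members' promoters and 8.86% of all, the GC box GGGCGG in 64.3% and 35.7%, the TATA motif TATAAA in 16.1% and 13.6%, and the CCAAT box in 32.1% and 37.4%. The 150 bases before the start are printed for Taf11, a histone-fold TAF, at chr17:27907745-27907894 (minus strand), for the shared subunit Polr2f at chr15:79141175-79141324 (plus strand), for the histone-fold TAF Taf12 at chr4:132274225-132274374 (plus strand), for Polr2m at chr9:71485984-71486133 (minus strand) and for Gtf2ird1 at chr5:134456717-134456866 (minus strand). Capitals mark the CRE and, reversed on the other strand, the TATA motif in Taf11, and the ETS-type motif in Polr2f and Taf12. The stretches of Polr2m and Gtf2ird1 hold none of these 3 motifs.
Taf11: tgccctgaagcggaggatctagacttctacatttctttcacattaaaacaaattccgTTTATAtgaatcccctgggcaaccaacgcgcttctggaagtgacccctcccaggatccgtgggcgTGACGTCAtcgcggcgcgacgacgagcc
Polr2f: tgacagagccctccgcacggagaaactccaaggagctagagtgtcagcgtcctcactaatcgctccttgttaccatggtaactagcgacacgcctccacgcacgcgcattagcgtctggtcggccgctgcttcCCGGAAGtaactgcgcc
Taf12: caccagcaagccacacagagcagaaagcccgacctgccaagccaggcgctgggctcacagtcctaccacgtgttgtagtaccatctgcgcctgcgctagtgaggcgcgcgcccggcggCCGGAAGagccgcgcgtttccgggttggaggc
Polr2m: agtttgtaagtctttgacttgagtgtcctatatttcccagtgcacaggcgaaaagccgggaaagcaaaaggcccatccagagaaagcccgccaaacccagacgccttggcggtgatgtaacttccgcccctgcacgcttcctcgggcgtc
Gtf2ird1: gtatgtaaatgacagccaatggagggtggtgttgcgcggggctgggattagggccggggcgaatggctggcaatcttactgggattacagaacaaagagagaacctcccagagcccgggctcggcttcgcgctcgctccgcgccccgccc
Taf11 also has a promoter entry at chr17:27909243-27909392 (minus strand), whose 150 bases hold the ETS-type motif and no CRE. The start from which Taf11 is transcribed in these tissues was not tested. Taf11, with the CRE in only 1 of its entries, had levels of 9.11, 9.03, 9.00, 8.85 and 8.91 in the WT amygdala at baseline, 0 hr, 1 hr, 48 hr and 1 wk, of 8.81, 8.97, 8.80, 8.63 and 9.00 in the DKO amygdala, of 8.75, 8.78, 8.97, 8.86 and 8.87 in the WT hippocampus, and of 8.89, 9.00, 8.94, 8.98 and 8.96 in the DKO hippocampus. It passed no test, and no array of it lay 1.5-fold from its baseline.

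The tissue and genotype labels were checked first. Adcy8 ranged from 6.94 to 7.26 in the WT and from 5.46 to 5.89 in the DKO amygdala, and from 7.14 to 7.66 and from 5.22 to 5.79 in the hippocampus, with Adcy1 likewise lower in DKO mice. The mean of 11 hippocampus-enriched genes (12 listed) was 7.79 to 8.08 on hippocampal and 6.84 to 7.35 on amygdala arrays, and that of 8 amygdala-enriched genes 7.02 to 7.37 and 7.87 to 8.30. Array medians lay between 6.64 and 6.83, but the spread of values did not match across arrays: the array of the DKO amygdala at 48 hr had the smallest SD over all clusters, 1.71, against up to 1.89, and the lowest upper quartile, 7.75, followed by the WT hippocampus at baseline with 7.86. In tissue RNA, fewer cells of a type and less RNA per cell cannot be told apart.

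Some genes are reported by several clusters, which need not measure the same thing. Taf1d, an SL1 subunit, has 9 clusters, 4 of them with identical values on every array, so the members have 62 distinct sets of values, and its clusters went in opposite directions in 11 of the 16 changes from baseline, by up to 1.15. Those values are uncertain as a measure of Taf1d. Polr2c, Polr2h, Taf10 and Taf13 have 2 clusters each with opposite signs in 5 or 6 of the 16 changes. The pair for Polr2l never differed in sign, and by at most 0.07.

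The members tended to lie low or high together on particular arrays. Set against its mean over the 10 arrays of its region, 64 of 65 clusters were below on the DKO amygdala array at 48 hr, where 73.1% of all clusters were, and 56 of 65 on the WT hippocampus array at baseline, where 61.8% of all were. On that baseline array 39 members (60.0%) had their lowest level of all 10 hippocampal arrays, against 22.3% of all clusters. On the DKO amygdala array at 48 hr it was 38 (58.5%) against 36.8%. The median deviation of the members was -0.18 on the WT hippocampus baseline array (all clusters -0.04, those above the median level -0.09) and -0.25 on the DKO amygdala array at 48 hr (all -0.11, above the median level -0.21). The DKO amygdala baseline array had the third low median, -0.11 (all 0.00, above the median level -0.05), and the WT amygdala baseline array the highest, 0.12 (all -0.01, above the median level 0.07). After a further quantile normalization these 4 medians became -0.10, -0.03, -0.07 and 0.04. Since every change in time is taken from a baseline array, these baseline levels enter all of the changes given below.

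**Figure D1:**
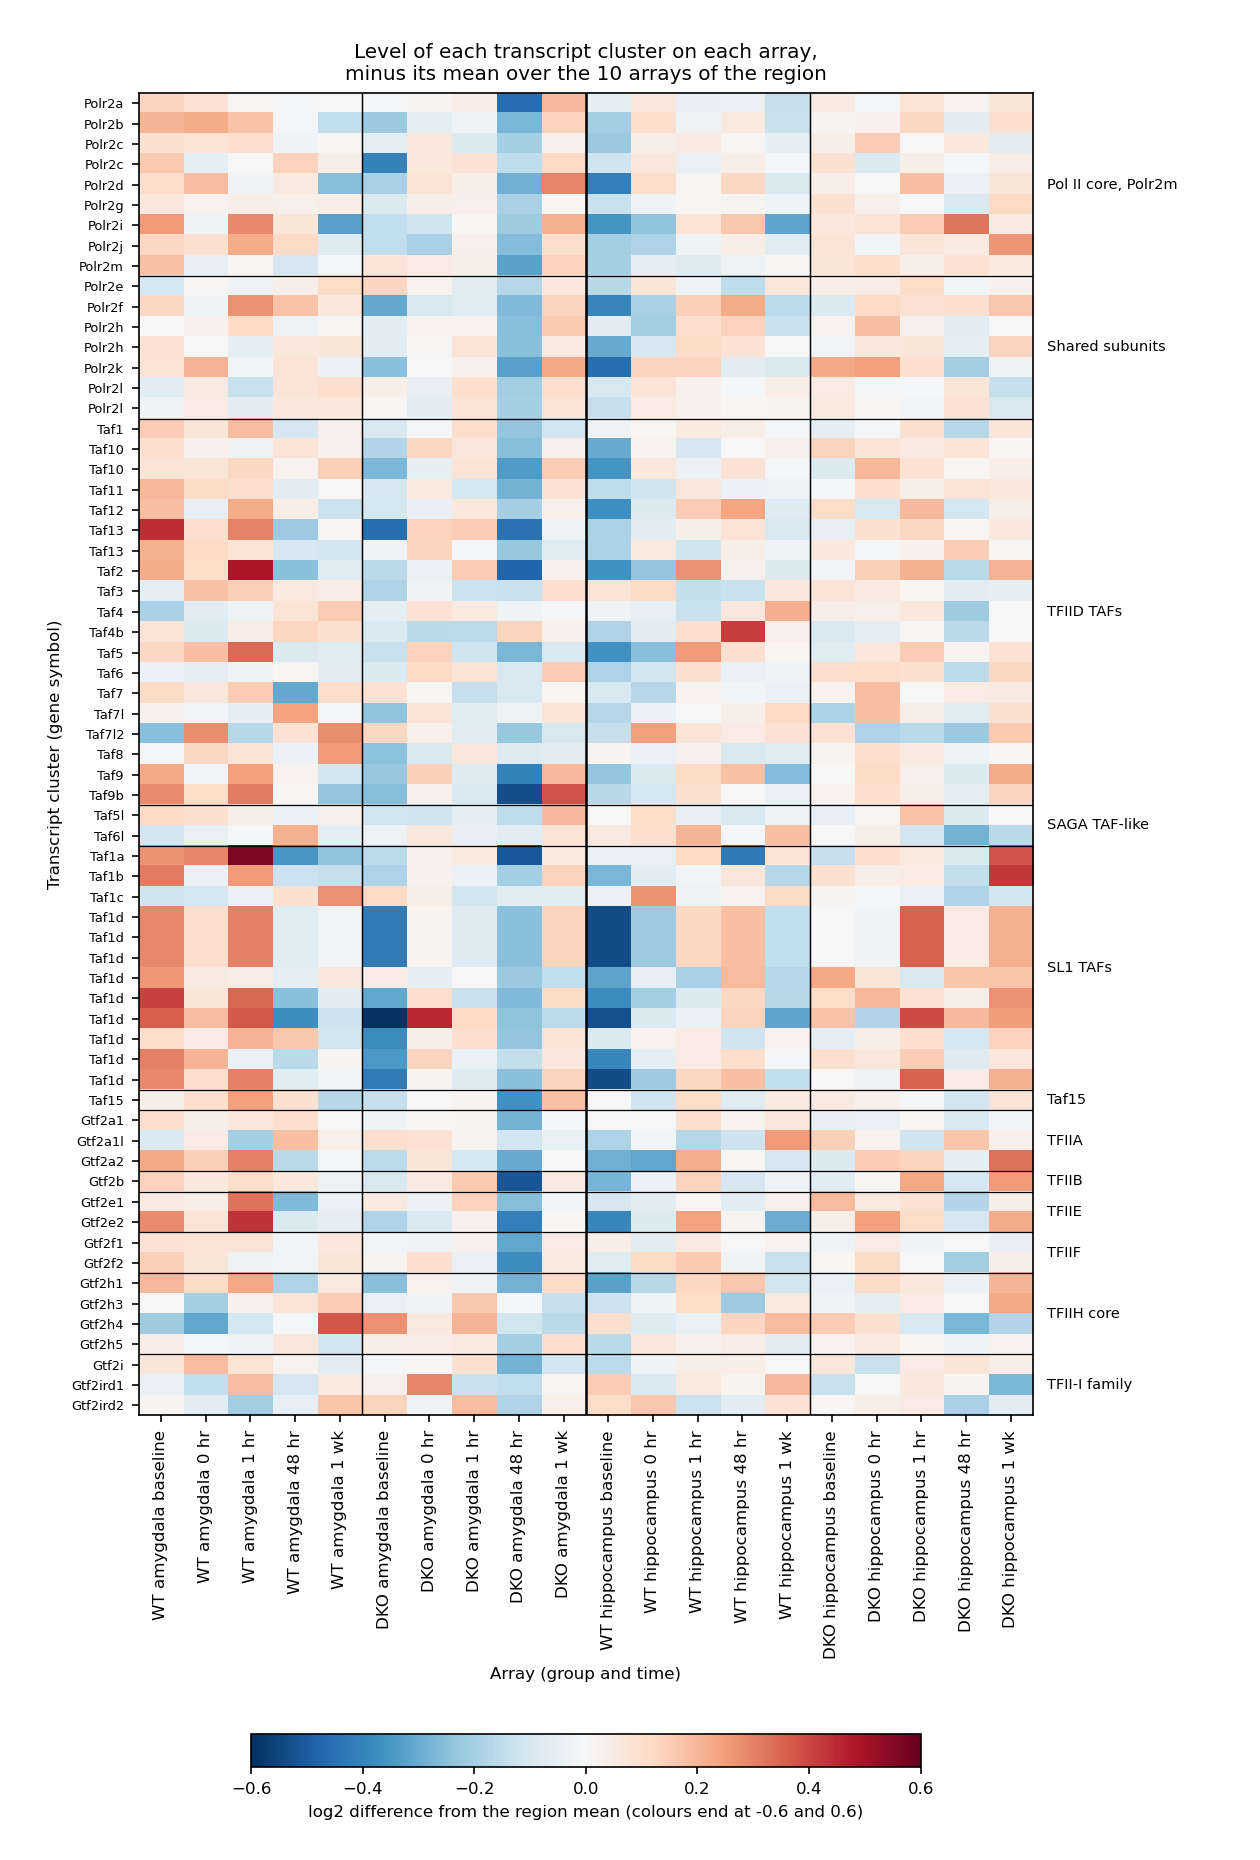
Heat map of the 65 transcript clusters (rows, by gene and role) on the 20 arrays (columns, by group and time), each coloured by its log2 level minus its mean over the 10 arrays of the same region, blue below and red above. The blue columns of the WT hippocampus at baseline (56 of 65 clusters below 0) and the DKO amygdala at 48 hr (64 of 65), and the red column of the WT amygdala at baseline (52 of 65 above 0), run through most roles. Colours end at -0.6 and 0.6.

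**Figure D2:**
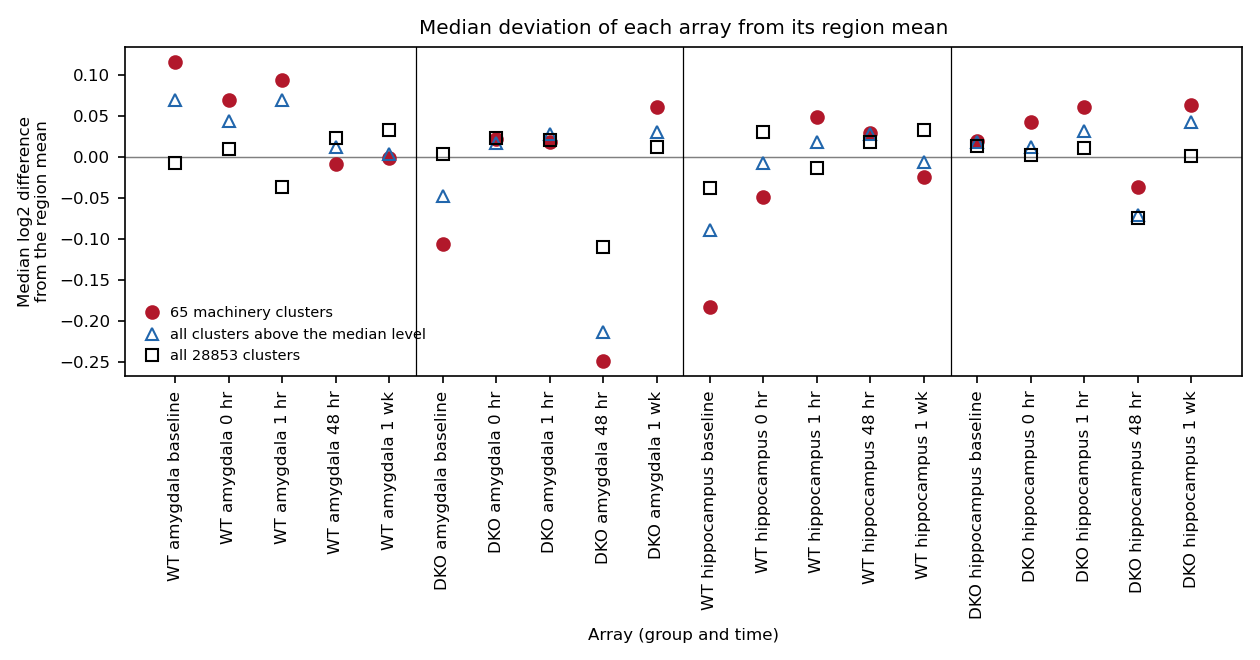
Median log2 difference from the region mean on each array (x axis) for the 65 clusters of the machinery (filled circles), all clusters above the median level (triangles) and all 28853 clusters (squares). The members sat at -0.18 on the WT hippocampus baseline array and at -0.25 on the DKO amygdala array at 48 hr, below both other sets.

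By role, the WT hippocampus baseline array was low for the core subunits with Polr2m (median -0.20), the shared subunits (-0.18), the TAFs of TFIID (-0.17), the SL1 TAFs (-0.16), TFIIA (-0.18), TFIIB (-0.28), TFIIE (-0.25) and TFIIH (-0.14). It was not low for TFIIF (-0.02), Taf15 (0.00), the SAGA proteins (0.03) or the TFII-I family (0.11). Neighbouring lists that the symbol rule does not take were low on the same array as well, here by the mean over their genes and not the median: Tbp with its regulators -0.14, the TFIIH subunits outside the rule (the helicases Ercc2 and Ercc3 and the Cdk7 kinase module) -0.12, Mediator -0.16, pausing and elongation factors -0.11, Pol I subunits -0.11 and Pol III subunits -0.14. Marker lists of other cell types on this array were neither the lowest nor the highest of the 5 WT hippocampal arrays for choroid plexus (9 genes, 8.36, range of the 5 arrays 7.30 to 8.59), meninges and vessels (7.63, 7.30 to 7.69), oligodendrocytes (8.76, 8.59 to 8.84) and thalamus (7.47, 7.38 to 7.91). Its lists for neurons (10.89, against up to 11.03), astrocytes (8.89, against up to 9.01), microglia (7.80, against up to 8.01) and striatum (7.97, against up to 8.15) were the lowest of that group. Their part in the low levels was not tested.

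The regions differed for 8 of the 52 genes. Compared over all 20 arrays with limma and an adjusted p of 0.05, 13 of 65 clusters (10 distinct) differed between hippocampus and amygdala, where 17.7% of all clusters did, and 21 were past an unadjusted p of 0.05, where 28.4% of all were. The median difference, hippocampus minus amygdala, was 0.00 over the members and -0.02 over all clusters. Lower in the hippocampus were Polr2m, Gtf2ird1, Polr2l and Taf6l. Higher in the hippocampus were Gtf2a2, Gtf2i, Gtf2h5 and clusters of Taf1d. No member separated the regions without overlap, as 3.80% of all clusters did.

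Among polymerase subunits, Polr2m (Gdown1), a Pol II-associated protein that opposes TFIIF, gave the largest difference. Its lowest, median and highest levels over 10 arrays were 10.16, 10.50 and 10.66 in the amygdala and 9.94, 10.16 and 10.24 in the hippocampus. The only amygdala array within the hippocampal range was the DKO one at 48 hr, the array with the smallest spread. The level was lower in the hippocampus at 9 of the 10 pairs of the same genotype and time, by 0.35 on the log2 scale (fc -1.27, SE 0.05, adjusted p = 1.9e-05, limma). Polr2l, the small zinc-binding subunit RPB10 that all 3 polymerases share, had levels of 10.58, 10.83 and 10.88 in the amygdala and 10.41, 10.55 and 10.62 in the hippocampus on its first cluster. The lowest amygdala array, DKO at 48 hr, was the only one inside the hippocampal range. The difference was -0.24 (SE 0.05, adjusted p = 0.000513), and -0.21 (SE 0.04, adjusted p = 0.000853) on its other cluster, and in both it was negative in 9 of 10 pairs. The catalytic subunit Polr2a did not pass, with 8.17 ± 0.17 in the amygdala and 8.23 ± 0.07 in the hippocampus (SD, n = 10).

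The TFII-I family split. Gtf2ird1, a DNA-binding relative of TFII-I whose human counterpart lies in the Williams syndrome region, had levels of 6.33, 6.46 and 6.77 (lowest, median, highest of 10) in the amygdala and 5.88, 6.17 and 6.35 in the hippocampus. The ranges met at 6.33 to 6.35. It was lower in the hippocampus in all 10 pairs of genotype and time, by 0.33 on the log2 scale (SE 0.06, adjusted p = 0.000281). Gtf2i itself, which encodes TFII-I, went the other way, from 9.28, 9.57 and 9.75 in the amygdala to 9.60, 9.79 and 9.83 in the hippocampus, with a difference of 0.20 (SE 0.05, adjusted p = 0.00592, 8 of 10 pairs). The third relative, Gtf2ird2, did not pass (5.93 ± 0.14 in the amygdala, 5.81 ± 0.11 in the hippocampus, SD, n = 10), although it was lower in the hippocampus in 9 of 10 pairs.

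Among the general factors, Gtf2a2, the small subunit of TFIIA, had levels of 7.20, 7.50 and 7.81 in the amygdala and 7.51, 7.80 and 8.15 in the hippocampus. All 10 hippocampal arrays were above the amygdala median, and the ranges overlapped. The difference was 0.32 (SE 0.07, adjusted p = 0.0027, 8 of 10 pairs). Its partner Gtf2a1 did not pass (10.42 ± 0.11 and 10.43 ± 0.05, SD, n = 10). Gtf2h5, the small TFIIH subunit that keeps the complex stable, was 10.52 ± 0.09 in the amygdala and 10.67 ± 0.07 in the hippocampus, a difference of 0.14 (SE 0.04, adjusted p = 0.0254, 9 of 10 pairs). Without the WT amygdala array at 1 wk or the WT hippocampus array at 0 hr it no longer passed (adjusted p up to 0.0515).

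Of the TAF proteins, Taf6l, the SAGA counterpart of Taf6, was 7.05 ± 0.10 in the amygdala and 6.89 ± 0.15 in the hippocampus, a difference of -0.16 (SE 0.05, adjusted p = 0.023). In the hippocampus the DKO arrays were lower, at 6.78 ± 0.13 against 6.99 ± 0.09 in WT mice (SD, n = 5), and in the amygdala both were at 7.05. The call was lost without the WT amygdala array at 48 hr (adjusted p = 0.0503) or with genotype and time as a block (adjusted p = 0.0611). Taf1d was higher in the hippocampus by 0.19 (SE 0.06, adjusted p = 0.0336) on 1 cluster and by 0.26 (SE 0.09, adjusted p = 0.036) on the 4 identical clusters, but these calls were lost in 10 and 9 of the 20 fits that left out an array, the latter also with the block (adjusted p = 0.0924). None of the 17 TFIID TAF genes passed. The nearest was Taf6, with a difference of -0.14 (SE 0.05, adjusted p = 0.0525). The 52 clusters that did not pass had differences from -0.19 to 0.21.

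**Figure D3:**
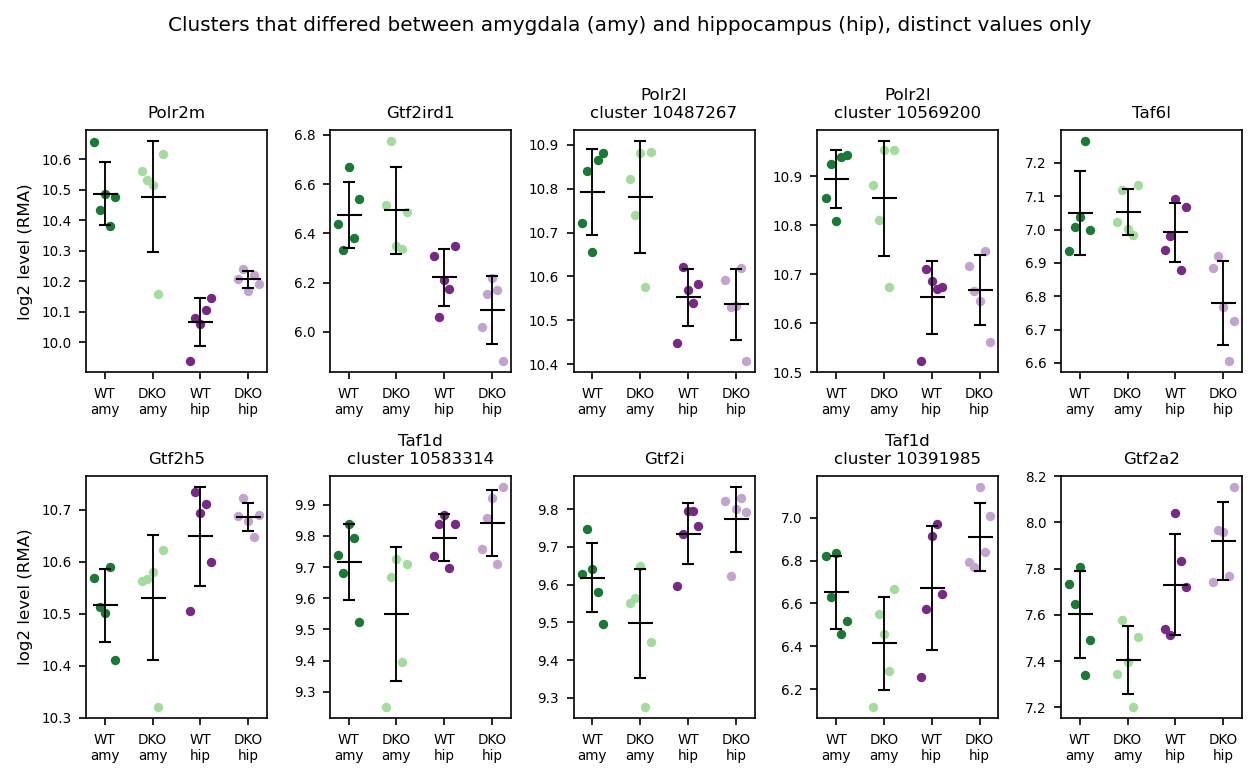
Levels (log2, RMA) of the 10 distinct cluster profiles that differed between regions, in the WT and DKO amygdala and hippocampus, with 1 point per array and the mean and SD of 5 arrays in black. The upper row holds the clusters lower in the hippocampus and the lower row those higher in it, and the ranges of both regions overlap in each panel. The y axes do not start at 0 and differ between panels.

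Between genotypes, no member passed in either region. With limma and an adjusted p of 0.1, 0 of 65 clusters were called in the amygdala, where 0.097% of all were, and 0 in the hippocampus, where 0.118% of all were, and the methods' t-test with Benjamini-Hochberg adjustment also called 0 in both. At an unadjusted p under 0.05 limma gave 7 members in the amygdala, all lower in DKO mice (6.82% of all clusters passed that limit), and 7 in the hippocampus, 6 higher and 1 lower (11.4% of all). The signs went opposite ways in the regions. In the amygdala 57 of 65 clusters had a lower mean in DKO mice, with a median difference of -0.11 (all clusters -0.01), and in the hippocampus 52 of 65 had a higher one, with a median of 0.09 (all -0.02).

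These medians came mostly from particular times. The difference between the DKO and the WT array of the same time had a median over the members of -0.23, -0.06, -0.09, -0.22 and 0.06 for the amygdala at baseline, 0 hr, 1 hr, 48 hr and 1 wk. For the hippocampus they were 0.22, 0.11, 0.02, -0.08 and 0.09. At baseline 54 of 65 members were lower in DKO amygdala and 55 of 65 higher in DKO hippocampus, each from 1 array against 1. Of all clusters, 52.2% were higher in DKO amygdala and 63.9% higher in DKO hippocampus at baseline. In the amygdala the medians over all clusters were 0.02, 0.01, 0.05, -0.15 and -0.02 in order of time. Over those above the median level they were -0.12, -0.03, -0.03, -0.21 and 0.03. For the hippocampus the medians over all clusters were 0.06, -0.03, 0.02, -0.09 and -0.03. Over those above the median level they were 0.11, 0.02, 0.01, -0.10 and 0.05. At 48 hr the members' medians were thus near those of all clusters above the median level in both regions. Beside this, striatal markers (8 of 10 listed genes measured) averaged 8.76 to 9.44 on WT and 8.63 to 8.82 on DKO amygdala arrays, and thalamic markers (8 genes) 7.38 to 7.91 on WT and 7.88 to 8.33 on DKO hippocampal arrays. The part of such tissue in the members' differences was not tested.

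Polr2j, the Pol II subunit RPB11 that pairs with Polr2c in assembly, had opposite signs in the regions and the lowest unadjusted p for that opposition. In the amygdala its levels at baseline, 0 hr, 1 hr, 48 hr and 1 wk were 9.15, 9.11, 9.24, 9.13 and 8.94 in WT mice and 8.88, 8.83, 9.05, 8.76 and 9.12 in DKO mice. In the hippocampus they were 8.86, 8.88, 9.04, 9.10 and 8.99 in WT mice and 9.14, 9.05, 9.14, 9.12 and 9.33 in DKO mice. The genotypes overlapped in both regions. The difference, DKO minus WT, was -0.19 (SE 0.09, adjusted p = 0.646) in the amygdala and 0.18 (SE 0.07, adjusted p = 0.391) in the hippocampus. Polr2i, the zinc-ribbon subunit RPB9, differed by 0.27 in the hippocampus (8.25 ± 0.11 in DKO and 7.98 ± 0.24 in WT mice, SD, n = 5, adjusted p = 0.391). Polr2f, the shared subunit RPB6, differed by -0.24 in the amygdala (8.22 ± 0.18 in DKO and 8.46 ± 0.11 in WT mice, adjusted p = 0.646), and Gtf2e2, the small subunit of TFIIE, by -0.26 (8.22 ± 0.18 and 8.48 ± 0.22, adjusted p = 0.646).

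The genotype effect was then compared between regions. In limma's test of that difference 0 of 65 members passed an adjusted p of 0.05, where 0.0104% of all clusters did, and 20 passed an unadjusted p of 0.05, 19 with the higher effect in the hippocampus, where 17.4% of all passed. The median was 0.17 over the members and 0.00 over all clusters. The lowest adjusted p belonged to Polr2j, whose effect was 0.37 higher in the hippocampus (SE 0.11, adjusted p = 0.241). Next by unadjusted p were clusters of Taf1d (0.37 and 0.48), Gtf2e2 (0.46, SE 0.16) and Polr2f (0.40, SE 0.14), each with an adjusted p of 0.245. The 1 member of the 20 with the lower effect was Taf6l, at -0.21 (SE 0.10, adjusted p = 0.282).

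**Figure D4:**
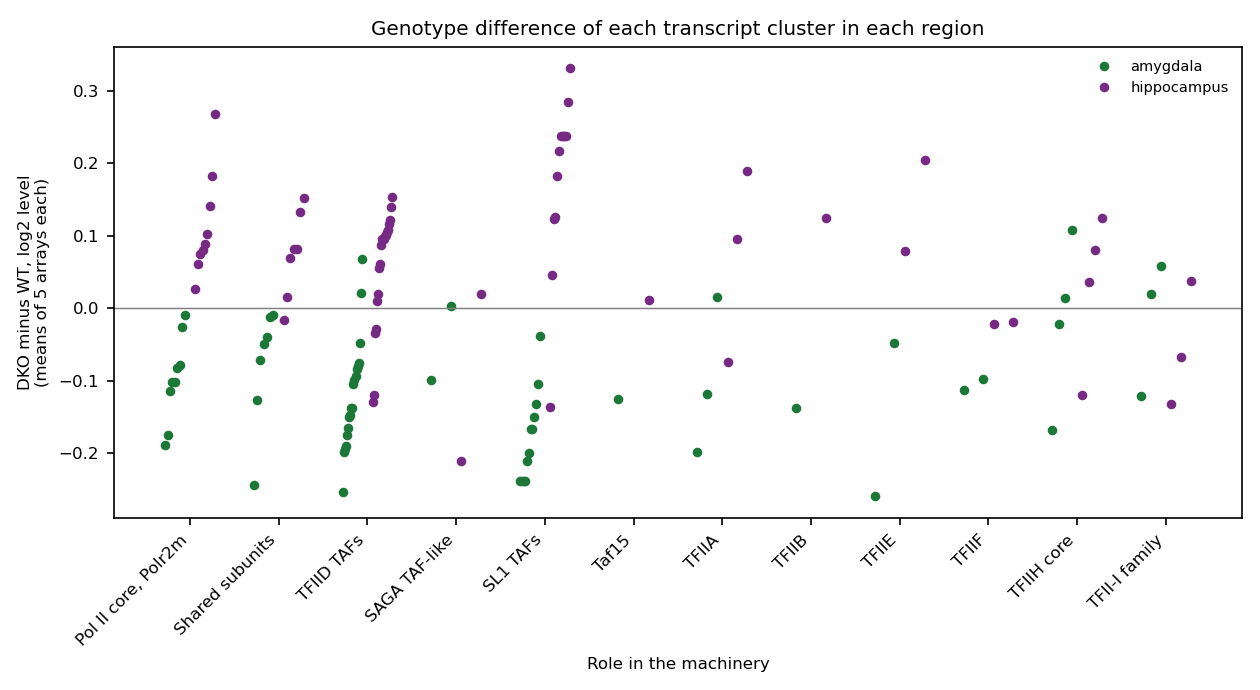
Difference between DKO and WT mice (log2, means of 5 arrays each) of every transcript cluster, by role, in the amygdala (green) and the hippocampus (purple), spread sideways in order of value. Most amygdala points lie below 0 and most hippocampal points above it in the polymerase subunits, the TAFs of TFIID and SL1 and TFIIE, and no point passed the test.

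No member passed for a change from baseline when each time had its 4 arrays, 1 per region and genotype, as replicates. Limma called 0 of 65 at an adjusted p of 0.05 at every time, where 0.00347%, 0.0243%, 0% and 0.00347% of all clusters were called in order of time. At an unadjusted p under 0.05 there were 3, 11, 7 and 3 members, against 2.58%, 6.16%, 3.59% and 3.12% of all clusters. The 11 members at 1 hr all had higher means, with the 4 identical Taf1d clusters among them. The labels do not say whether both regions came from the same mice, so the groups need not be independent.

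The time with the most uniform direction was 1 hr. At 1 hr 22 of 65 clusters (33.8%, 19 distinct, 17 genes) were above baseline in all 4 groups, against 12.4% of all clusters, and none was below in all 4, against 10.4%. For these 22 the smallest change of the 4 groups ran from 0.006 (a cluster of Taf1d) to 0.23 (Taf2), and in many it was near 0. At 0 hr 5 were above and 1 below, where 8.02% and 3.43% of all clusters were, at 48 hr 2 and 2 (2.03% and 5.06% of all), and at 1 wk 2 and 0 (6.16% and 2.16%). The 17 genes were the polymerase subunits Polr2i, Polr2f and Polr2h, the TAFs Taf1, Taf2, Taf5, Taf8, Taf9, Taf9b, Taf10 and Taf12, the SL1 subunits Taf1a and Taf1d, and Gtf2a2, Gtf2e2, Gtf2h1 and Gtf2h3. Polr2h and Taf10 are among them by 1 of their 2 clusters. At 1 hr the other cluster of Polr2h was at -0.14 in the WT amygdala, and that of Taf10 at -0.13 there and at -0.08 in the DKO hippocampus. Taf1d is among them by only some of its 9 clusters. A Taf1d cluster outside this count rose only in WT hippocampus (0.12). Its other changes were -0.22 (WT amygdala), -0.05 (DKO amygdala) and -0.33 (DKO hippocampus). Another Taf1d cluster fell only in WT amygdala (-0.34). A further Taf1d cluster fell there by less (-0.06), was at -0.02 for DKO hippocampus, and rose in the remaining groups. These 4 times share their baseline arrays, so they are not independent of each other.

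Taf2, a large TAF that contacts the initiator element, had the lowest unadjusted p of the members at 1 hr. In the amygdala it was at 8.54 at baseline and 8.81 at 1 hr in WT mice and at 8.16 and 8.47 in DKO mice, and in the hippocampus at 7.98 and 8.62 in WT mice and at 8.33 and 8.55 in DKO mice. It was higher at 1 hr on all 4 arrays, with a mean of 0.36 (SE 0.11, adjusted p = 0.643). Polr2f had a mean change of 0.27 (SE 0.10, adjusted p = 0.777), Taf5, a scaffold TAF with WD40 repeats, 0.27 (SE 0.11, adjusted p = 0.809), and Gtf2b, the single protein that makes up TFIIB, 0.23 (SE 0.10, adjusted p = 0.809). At 48 hr Gtf2e1, the large subunit of TFIIE, had a mean of -0.24 (SE 0.08, adjusted p = 1) and Taf1a of -0.32 (SE 0.13, adjusted p = 1). Taf10, a TAF of both TFIID and SAGA, had means of 0.22, 0.22 and 0.24 at 0 hr, 1 hr and 1 wk on 1 cluster, with adjusted p-values of 0.809 to 1.

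The change from baseline was also compared between genotypes, with the 2 regions as replicates. Limma called 0 of 65 members at every time, and 0% of all clusters. At an unadjusted p under 0.05 there were 1, 1, 3 and 11 members at the successive times, where 5.1%, 1.92%, 13.1% and 17.9% of all clusters passed. Gtf2h4, the TFIIH subunit that anchors the Ercc3 helicase, had the lowest unadjusted p. In WT mice it was at 7.21 at baseline and 7.79 at 1 wk in the amygdala and at 7.50 and 7.60 in the hippocampus, and in DKO mice at 7.70 and 7.26 in the amygdala and at 7.56 and 7.23 in the hippocampus. At 1 wk it thus lay above baseline in both WT regions and below in both DKO regions, a difference of -0.72 (SE 0.16, adjusted p = 0.167). Taf7l2, a Taf7-like gene, had -0.64 at 0 hr (SE 0.17, adjusted p = 0.923) and -0.59 at 48 hr (adjusted p = 0.331). The paralogs Taf9 and Taf9b, histone-fold proteins of TFIID and SAGA, had 0.50 (SE 0.18, adjusted p = 0.19) and 0.57 (SE 0.22, adjusted p = 0.217) at 1 wk. Without the WT hippocampus baseline array, which leaves 1 WT baseline array for the comparison, 3 members (Gtf2h4, Taf9 and Taf1b) were called at 1 wk, and 2.96% of all clusters.

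On single arrays, changes of at least 1.5-fold from baseline were most frequent in the WT hippocampus. Over the 16 changes there were 27 values past 1.5-fold (21 distinct, from 17 clusters of 12 genes), 17 of them in the WT hippocampus, 0 in the DKO hippocampus, and 5 each in the WT and DKO amygdala. Each rests on 1 array against 1 baseline array, so none has a test. With the mean of both baseline arrays of the region as the reference, 4 values were past 1.5-fold, the identical clusters of Taf1d in the DKO hippocampus at 1 hr, and 0 of the 27 remained.

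In the WT hippocampus the values past 1.5-fold belonged to polymerase subunits, TAFs and TFIIE, while 54 to 59 of the 65 clusters were above baseline at each time. At 0 hr 1 member was past 1.5-fold higher (0.236% of all clusters), at 1 hr 8 (0.97%), at 48 hr 8 (1.08%), and at 1 wk 0 were past it in either direction (0.627%). The members' medians at these times were 0.14, 0.20, 0.20 and 0.15, against 0.08, 0.03, 0.06 and 0.08 over all clusters and 0.09, 0.11, 0.12 and 0.09 over those above the median level. With the mean of both baselines the members' medians were 0.05, 0.12, 0.08 and 0.05, against 0.04, 0.00, 0.03 and 0.05 over all clusters. By the mean of a gene's clusters, 14, 15, 15 and 14 of the 17 TFIID TAF genes and all 5 shared subunits at each time were above their own baseline, where 70.3%, 55.5%, 62.5% and 71.7% of all clusters were. A cluster of the shared subunit Polr2h was below it at 0 hr (-0.14) and 1 wk (-0.07).

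The shared subunit Polr2k (RPB12) had levels of 7.44, 8.03, 8.03, 7.83 and 7.81 in the WT hippocampus at baseline, 0 hr, 1 hr, 48 hr and 1 wk, and of 8.12, 8.14, 7.99, 7.69 and 7.86 in the DKO hippocampus. The WT baseline array was the lowest of all 10, and the later WT arrays lay inside the DKO range. The change was 0.59 at both 0 hr and 1 hr (fc 1.5). Polr2f had levels of 7.94, 8.14, 8.48, 8.56 and 8.18 in WT and 8.25, 8.46, 8.42, 8.43 and 8.50 in DKO hippocampus. Its WT change reached 0.62 at 48 hr (fc 1.53), again from the lowest array of the region.

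Among TAFs of TFIID, Taf2 was 0.64 above baseline at 1 hr (fc 1.56) and Taf5 0.62 (fc 1.53). Taf5 had levels of 6.73, 6.83, 7.34, 7.18 and 7.10 in the WT and 7.01, 7.16, 7.24, 7.11 and 7.17 in the DKO hippocampus, so only the WT arrays at baseline and 0 hr lay below the DKO range. Taf12 was 0.60 above baseline at 48 hr (fc 1.52), with levels of 8.22, 8.51, 8.74, 8.83 and 8.52 in WT and 8.70, 8.49, 8.79, 8.49 and 8.62 in DKO mice. Taf4b, a cell-type-restricted paralog of Taf4, moved less with the choice of baseline. Its levels were 5.74, 5.86, 6.02, 6.34 and 5.95 in the WT and 5.83, 5.87, 5.93, 5.76 and 5.92 in the DKO hippocampus, and from 5.72 to 6.02 in the amygdala. The WT array at 48 hr was the highest of all 20, 0.60 above its baseline and 0.55 above the mean of both baselines. All levels of Taf4b lay below the array medians (6.64 to 6.83), so this value rests on 1 array at a low signal. The paralog Taf4 had 7.26 at baseline and 7.36 at 48 hr in the WT hippocampus.

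Gtf2e2 was 0.63 above baseline at 1 hr (fc 1.55), with levels of 8.06, 8.37, 8.70, 8.47 and 8.16 in WT and 8.49, 8.70, 8.56, 8.35 and 8.68 in DKO hippocampus. The WT arrays at baseline and 1 wk were below every DKO array. For Taf1d, the 4 identical clusters were 0.66 above baseline at 1 hr and 0.72 at 48 hr, and another cluster 0.66 at 48 hr. In the DKO hippocampus no member was past 1.5-fold at 0 hr, 1 hr, 48 hr or 1 wk, where 0.246%, 0.395%, 0.6% and 0.932% of all clusters were in either direction. The members' medians there were 0.01, 0.04, -0.04 and 0.03, against -0.01, -0.004, -0.09 and -0.01 over all clusters. With the mean of both baselines the members' medians were 0.13, 0.14, 0.05 and 0.14, against 0.01, 0.02, -0.06 and 0.01 over all clusters. The members' medians with that baseline were above those of the WT hippocampus at all times but 48 hr. The order of the genotypes thus turned with the choice of baseline at 0 hr, 1 hr and 1 wk. Whether the genotypes differ in this was not tested, since within the hippocampus each time has 1 array per genotype.

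In the amygdala the members past 1.5-fold were mostly lower in WT and higher in DKO mice. In the WT amygdala no member was past 1.5-fold in either direction at 0 hr (0.912% of all clusters) or 1 hr (0.579%), 4 clusters were lower at 48 hr (1.84% of all), and 1 was higher at 1 wk (2.28%). In the DKO amygdala 2 were higher at 0 hr (0.426%), 2 at 1 hr (0.367%), 0 were past in either direction at 48 hr (1.42%) and 1 was higher at 1 wk (0.839%). The members' medians were -0.07, 0.01, -0.08 and -0.12 in WT mice and 0.14, 0.15, -0.14 and 0.19 in DKO mice. Over all clusters the medians were 0.01, -0.02, 0.03 and 0.04 in WT and 0.02, 0.02, -0.13 and 0.004 in DKO mice. Clusters above the median level had -0.02, -0.003, -0.06 and -0.07 in WT and 0.06, 0.07, -0.16 and 0.08 in DKO mice. Set against the mean of both baselines, the members' medians were 0.06, 0.08, 0.00 and 0.02 in WT mice and 0.03, 0.01, -0.24 and 0.06 in DKO mice. All clusters then had 0.01, -0.03, 0.02 and 0.03 in WT and 0.02, 0.02, -0.11 and 0.01 in DKO mice.

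Taf13, a histone-fold TAF that pairs with Taf11, carried several of these values on 1 of its clusters. The levels were 8.82, 8.48, 8.68, 8.16 and 8.39 in the WT and 7.92, 8.52, 8.53, 7.94 and 8.35 in the DKO amygdala. The WT baseline was the highest and the DKO baseline the lowest of the 10, and both genotypes were near each other at 0 hr, 1 hr and 1 wk. The changes were -0.66 at 48 hr in WT mice (fc -1.58) and 0.59 and 0.60 at 0 hr and 1 hr in DKO mice (fc 1.51 and 1.52). The other Taf13 cluster stayed between 10.30 and 10.73 in the amygdala.

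Taf1a, the SL1 subunit TAF48, had levels of 8.54, 8.57, 8.84, 7.93 and 8.03 in the WT and 8.12, 8.30, 8.34, 7.77 and 8.33 in the DKO amygdala, and of 8.04, 8.04, 8.21, 7.66 and 8.17 in the WT hippocampus. The array at 48 hr was the lowest in each of these groups, with a change of -0.62 in the WT amygdala (fc -1.53). It was not so in the DKO hippocampus, with 7.95 at baseline and 8.00 at 48 hr. Clusters of Taf1d were at -0.65 and -0.73 in the WT amygdala at 48 hr, and 1 of them at 1.04 and 0.71 in the DKO amygdala at 0 hr and 1 hr, from a DKO baseline of 5.64 that was the lowest of the 20 arrays.

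At 1 wk, Gtf2h4 was 0.59 above baseline in WT amygdala (fc 1.5) and -0.44 in DKO amygdala. Taf9b was 0.63 above baseline in the DKO amygdala (fc 1.55) and -0.52 in the WT amygdala. Its levels were 9.57, 9.40, 9.60, 9.29 and 9.05 in WT and 9.03, 9.32, 9.19, 8.75 and 9.66 in DKO mice. The genotypes thus exchanged places between baseline and 1 wk, and in the hippocampus all 10 arrays of Taf9b lay between 9.05 and 9.34.

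**Figure D5:**
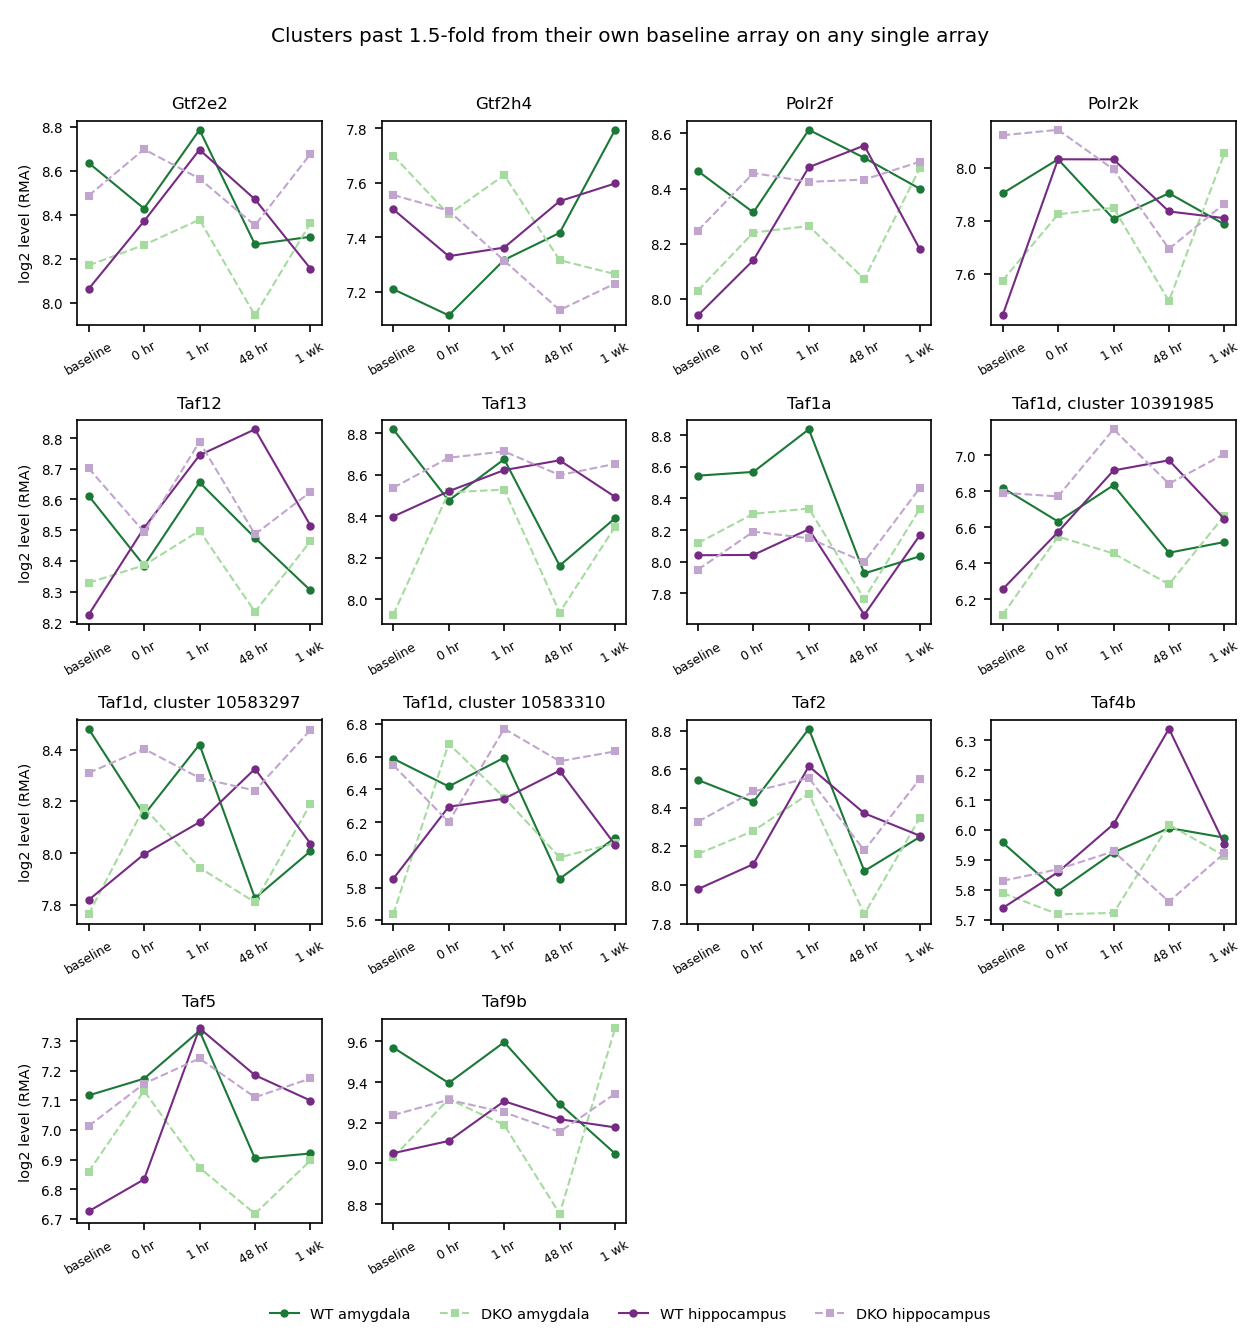
Levels (log2, RMA) of the 14 distinct cluster profiles past 1.5-fold from their own baseline array on any array, with 1 point per array in each of the 4 groups (solid lines WT, dashed lines DKO; time points are evenly spaced, not to scale, and y axes do not start at 0). The WT hippocampus line starts lowest of the hippocampal lines in most panels, the WT and DKO amygdala lines start apart for Taf13 (8.82 and 7.92), and Taf4b has a single high array at 48 hr (6.34).

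The other 40 genes had no value past 1.5-fold. Over the 48 clusters that stayed within it, changes ran from -0.58 to 0.54. Polr2a had levels of 8.18, 8.30, 8.18, 8.19 and 8.10 in the WT hippocampus and of 8.16, 8.19, 8.22, 7.72 and 8.37 in the DKO amygdala, with its lowest value of all on the DKO amygdala array at 48 hr. Gtf2b was also lowest on that array, at 8.57, against 8.93 to 9.47 in the hippocampus. Polr2g, the subunit RPB7 that joins the Pol II stalk, stayed between 11.13 and 11.39 on all arrays. The germ-line paralogs Taf7l and Gtf2a1l and the Taf7-like Taf7l2 ranged from 4.78 to 5.35, from 5.62 to 6.07 and from 5.66 to 6.36.

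The genes that work beside these members gave like counts. Tbp itself had levels of 8.33, 8.27, 8.38, 8.24 and 8.14 in WT amygdala, 8.03, 8.21, 8.29, 7.92 and 8.39 in DKO amygdala, 8.11, 8.18, 8.39, 8.23 and 8.24 in the WT hippocampus, and 8.41, 8.35, 8.37, 8.21 and 8.40 in the DKO hippocampus. The DKO amygdala array at 48 hr was the lowest of all 20 for Tbp. That array was the lowest of its region for 38 of 65 members and for 36.8% of all clusters. In the hippocampus the WT baseline array was the lowest for Tbp, as for 39 members and 22.3% of all clusters. The neighbouring lists were Tbp with its regulators (6 clusters), TFIIH subunits outside the rule (6), Mediator (34), pausing and elongation factors (26), Pol I subunits (9) and Pol III subunits (11). In them 0 clusters passed any limma test of genotype or time. For a change from baseline, at most 8 of a list were at an unadjusted p under 0.05. These were 8 of the 34 Mediator clusters at 1 hr, where 6.16% of all clusters passed that limit. Between regions 0, 1, 6, 5, 2 and 2 clusters of these lists passed, where 17.7% of all clusters did. Mediator had 5 higher and 1 lower in the hippocampus, among them the kinase Cdk19 (0.33, SE 0.06), and both the Pol I pair (Polr1d and Cd3eap) and the Pol III pair (Polr3k and Crcp) were lower. The largest difference of these lists was the elongation factor Tcea2, lower in the hippocampus by 0.34 on the log2 scale (SE 0.05). On single arrays the Pol III subunit Polr3e was above baseline in the WT hippocampus by 0.64, 0.83 and 0.60 at 0 hr, 1 hr and 48 hr. Of all clusters, 0.236%, 0.97% and 1.08% were at least 1.5-fold higher there at these times. All 3 values were taken from the same baseline array, on which the Pol III list lay at -0.14 from its region mean, and have no test.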

How the data were processed

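Levels were measured on 20 Affymetrix Mouse Gene 1.0 ST arrays, 1 for each region, genotype and time point. The authors summarised and normalised the arrays by RMA in Affymetrix Expression Console and deposited 1 table of log2 values per transcript cluster. The software version and the genome build of the array annotation are not given in the sources used here. RMA normalises arrays together, so a level depends on all arrays, and array values carry no read depth: the number of arrays limits the precision. Clusters were named from the platform annotation held by GEO, and 2 clusters that pair a member with another symbol were left out. The members, roles and lists were chosen with earlier results of these data known.

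Values were used as deposited. Comparisons were fitted over all 28853 clusters in limma 3.58.1 (R 4.3.3) with eBayes and Benjamini-Hochberg adjustment, so every adjusted p in the text is limma's. The genotype effect was fitted within each region with the 5 time points as replicates, as in the study, at an adjusted p of 0.1. The other comparisons used all 20 arrays at 0.05: the difference between regions, its interaction with genotype, the change from baseline at each time over the 4 groups, and the difference between genotypes in that change over the 2 regions. Replicates here differ in time, region or genotype, so p-values include those differences. Changes on single arrays were described by a limit of 1.5-fold, with no test. Named with values were members past a test, past 1.5-fold or named by the study, the highest and lowest by mean level (Polr2g and Taf7l), Polr2a, Gtf2b, Tbp and paralogs of members. Outside that rule, Polr2j and Gtf2e1 were chosen for a low unadjusted p and Taf11 for its promoter, after their values were seen. Alternatives were a filter on level, median centring, quantile normalization applied again, robust fitting with a variance trend, blocks, the methods' t-test, another baseline, a limit of 1.3-fold, the mean of a gene's clusters, and leaving out each array. Counting identical values once was added after seeing the data. Scripts were tested on simulated data. Tables were made with pandas 2.3.3 and numpy 2.4.6 (Python 3.11.15) and figures with matplotlib 3.10.9.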

Additional observations from a re-analysis of the deposited data

Results flagged for a closer look

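In 252 sets of 5 arrays (each distinct cluster, and the members' median deviation, in each of the 4 groups), 14 had a highest or lowest array set apart from the nearest of the others by Dixon's 95% criterion, where chance alone gives about 1 in 20. The arrays of a group differ in time, so an array that stands apart cannot be told apart from its time point. On the DKO amygdala array at 48 hr these were Polr2m at 10.16, Gtf2a1 at 10.14, Gtf2f1 at 7.63 and Gtf2h5 at 10.32, each the lowest of its group. On the WT hippocampus baseline array they were Polr2g at 11.13, a cluster of Polr2l at 10.52 and a cluster of Taf10 at 9.19, also the lowest. On the WT amygdala array at 48 hr, Taf7 at 6.08 and Gtf2f1 at 7.93 were the lowest and Taf7l at 5.35 the highest. The DKO hippocampus array at 48 hr was the lowest for Taf4 at 7.07 and Taf6 at 7.40, and that at 0 hr for Gtf2i at 9.62. The DKO amygdala array at 1 wk was the highest for Taf5l at 7.68.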

How the results depend on the processing

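No called result reversed under an alternative, and the genotype effects, the interaction and the changes from baseline kept a count of 0 members in each. With the time points as a replicate block the genotype effects also stayed at 0 in both regions; the labels number no replicates. The region difference counted 13 clusters, 12 with the combination of genotype and time as a replicate block, 19 with further quantile normalization, 9 above the median level, and 7 to 16 when 1 array was left out: 8 without the WT amygdala array at 0 hr or at 48 hr or the DKO hippocampus array at 1 hr, and 7 without the WT amygdala array at 1 wk. The genotype difference in the change at 1 wk ranged from 0 to 3, with 3 without the WT hippocampus baseline array. The 27 values past 1.5-fold on single arrays became 4 with the mean of both baseline arrays, 14 above the median level, 11 with the mean of a gene's clusters and 111 at 1.3-fold. The median change of the members in the WT hippocampus (0.20 at both times) became 0.063 at 1 hr and 0.059 at 48 hr after further quantile normalization, and 0.085 at 48 hr with the mean of both baseline arrays. Untested medians that changed sign were those of the WT amygdala at 0 hr, 48 hr and 1 wk with the mean baseline (given above), of the DKO amygdala at 48 hr (-0.14, and 0.01 after further quantile normalization) and of the DKO hippocampus at 48 hr (-0.04, and 0.05 to 0.08 with either normalization or the mean baseline). The cause was not tested. With 1 array per condition, no change of a single time in a single group can be tested.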
